A study of Mus musculus with 8 samples.

Results

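Astrocytes are the star-shaped support cells of the brain, and 33 genes that mark them or carry out their functions were followed here in mouse hypothalamus after a short exposure to low oxygen. The genes were taken by symbol from a deposited table of read counts that holds 55487 genes, and each symbol matched 1 row. The hypothalamus was taken for RNA-seq from C57BL/6J mice that had breathed 7% oxygen for 2 hours (hypoxia, 4 libraries) or had stayed in 21% oxygen for the same time (normoxia, 4 libraries). The labels name no genetic change, agent, age or sex for either group. The series asks how hypoxia alters the action of the glucocorticoid receptor, the receptor for adrenal steroid hormones.

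Astrocytes surround synapses and blood vessels. They clear glutamate and GABA from the synaptic space, turn glutamate into glutamine, buffer potassium, and move water through channels at the endfeet that wrap capillaries. Gap junction channels built of connexin proteins join neighbouring astrocytes into a network that shares ions and metabolites. Astrocytes also hold most of the glycogen of the brain, and glucocorticoids are known to induce their glutamine synthetase gene, Glul.

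Levels are given as CPM (read counts relative to a fixed library total, scaled between libraries by the TMM method), and a log2 fold change is hypoxia over normoxia. Library totals ran from 16994473 to 21694383 counts. The hypothalamic peptide genes Avp, Oxt, Pmch and Hcrt were present in every library, with lowest values of 42.8, 55.4, 160.1 and 47.5 CPM. Normoxia replicate 2 stood apart in regional content, with the cortical transporter gene Slc17a7 at 384 CPM against 7.92 to 80.3 CPM in the other 7 libraries. That library also held the pituitary genes Prl and Gh at 40.4 and 38.9 CPM, and hypoxia replicate 4 held them at 28.6 and 11.7 CPM. Other genes of the pituitary list did not follow Prl and Gh. Pomc was at 9.73 CPM in normoxia replicate 2, its lowest library, and at 17.1 CPM in hypoxia replicate 4. Cga was at 0.744 CPM and 1.55 CPM there, against 3.48 CPM in hypoxia replicate 3. Normoxia replicate 1 stood apart in thalamic genes, with a summed level of 9 of them at 777 CPM against 419.7 to 536 CPM elsewhere, and Prkcd at 133 CPM against 19.1 to 36.3 CPM. Calls that appear or are lost without normoxia replicate 2 or hypoxia replicate 4 are given beside the results. Hypoxia replicate 4 was also the hypoxia library nearest to normoxia in some called genes. Adm was at 2.95 CPM there and 8.12 to 9.08 CPM in the other hypoxia libraries, and Slc2a1 at 140 and 175 to 200 CPM. Gjb6 and Sdc4 did not show this. Leaving that library out is therefore not independent of the group difference, and calls gained that way are no firmer than the main fit.

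All 33 genes were well detected. The lowest count of any of them in any library was 200, for Gjb2, and all passed the filter on low counts. Per kilobase of exon, normoxia levels ran from 5.21 CPM for the urea transporter Slc14a1 to 768 CPM for the secreted matrix protein Sparcl1. Exon length here joins the exons of all annotated transcripts of a gene, so the order depends on the annotation. Apoe (629.8 CPM per kilobase), which carries lipid, Cst3 (575), an inhibitor of cathepsin proteases, and Glul (419), the glutamine synthetase, came next. At the low end stood Gjb2 (7.76) and the transcription factor Sox9 (7.99). The pan-astrocyte enzyme Aldh1l1 was at 14.8 CPM per kilobase and the intermediate filament gene Gfap at 66.2. Many of these genes are not limited to astrocytes. Apoe is also made by microglia, Clu and Cst3 by neurons or microglia, and Fabp7, Slc1a3 and Sox9 by tanycytes and other radial cells that line the third ventricle.

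Of the 33 genes, the connexin gene Gjb6 rose and no gene fell after 2 hours of hypoxia. A call means a Benjamini-Hochberg adjusted p under 0.05 in the quasi-likelihood test of edgeR over 17047 genes. The single call is 3.03% of the astrocyte genes, and 2.15% of all genes tested were called (0.915% higher and 1.23% lower). At an unadjusted p under 0.05 were 10 of the 33 genes, against 19.3% of all genes tested, and that share is the background for each count of this kind given for a gene list. By adjusted p, 156 higher and 210 lower genes were called over all genes tested. With scaling by library size alone the counts were 146 and 342, and Gjb6 was still the 1 gene of the 33 called. With DESeq2 they were 386 and 616. They were 329 and 346 without normoxia replicate 2, 236 and 457 without hypoxia replicate 4, and 456 and 739 without both. These counts are the background for calls given below under those fits. Of the 33, 22 had a positive log2 fold change and 11 a negative one, with a median of 0.05, against a median of −0.01 over all genes tested. In 24 the log2 fold change was smaller than 0.2 in either direction, and in none did it reach 1. In bulk tissue, fewer astrocytes and less RNA per astrocyte cannot be told apart. Summed over the 33 genes, the level was 14801, 15152, 14793 and 14641 CPM in hypoxia replicates 1 to 4 and 14901, 14011, 14017 and 14043 CPM in normoxia replicates 1 to 4. Normoxia replicate 1 lay among the hypoxia libraries in that sum and the other normoxia libraries lay below them. The sum gives most weight to the genes with the highest counts. With equal weight for each gene, the mean log2 deviation from the 8 libraries was −0.027 to 0.06 in hypoxia and −0.107 to 0.081 in normoxia. By that measure the groups overlapped, and normoxia replicates 3 (0.008) and 4 (−0.015) lay within the hypoxia range.

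**Figure D1:**
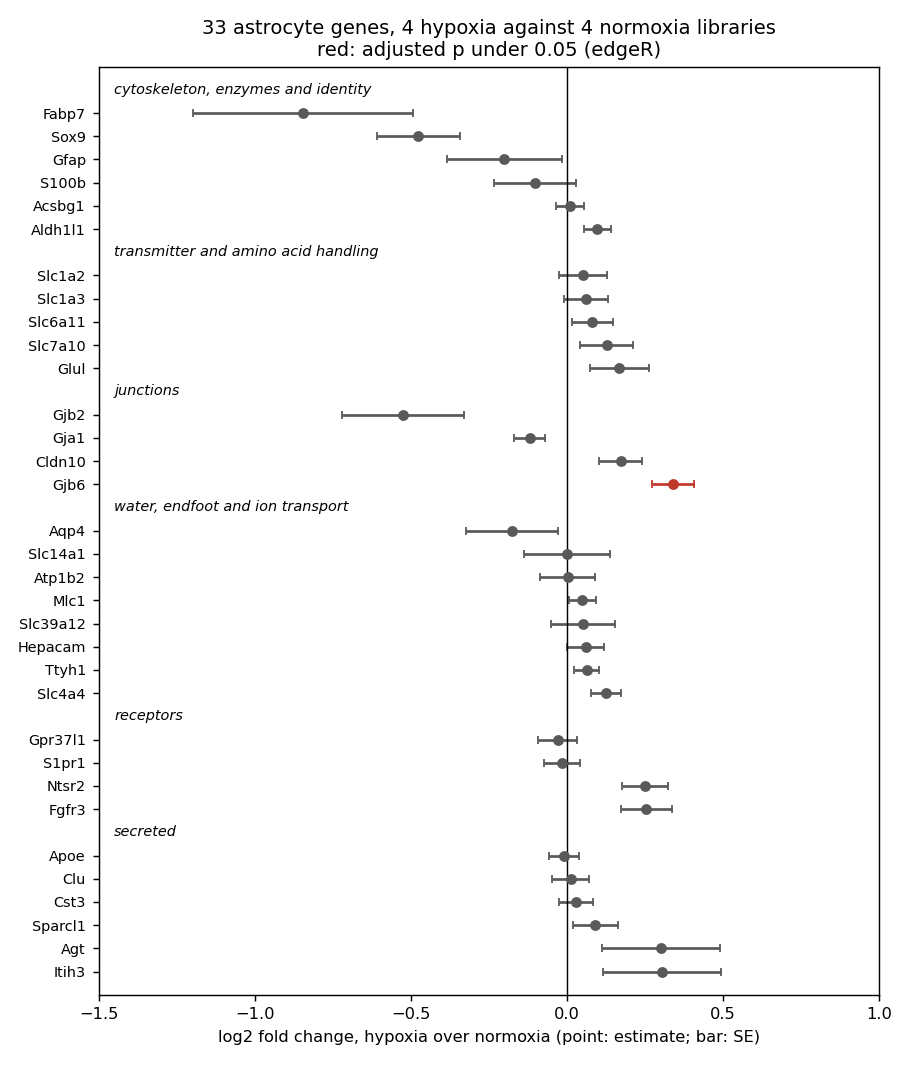
Log2 fold change of hypoxia over normoxia for the 33 astrocyte genes (horizontal axis; points are edgeR estimates and bars 1 SE), grouped by what their products do, with n = 4 libraries in each group. Gjb6, in red, is the called gene at 0.34, and the widest bars belong to Fabp7, Gjb2, Agt, Itih3 and Gfap.

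Gjb6 encodes connexin 30, a gap junction protein of mature astrocytes. It lies on chromosome 14 (57123303 to 57133611, minus strand, mm10), next to Gjb2 (57098600 to 57104702, minus strand), which encodes connexin 26. Since Gjb6 is the called gene, the 250 bases before its start are shown, from RefSeq on build GRCm38.p6, at chr14:57133612-57133861 on the minus strand. Capitals mark a match to a core motif of the hypoxia-inducible factors (HIF), searched as ACGTG and GCGTG on both strands.
Gjb6 upstream: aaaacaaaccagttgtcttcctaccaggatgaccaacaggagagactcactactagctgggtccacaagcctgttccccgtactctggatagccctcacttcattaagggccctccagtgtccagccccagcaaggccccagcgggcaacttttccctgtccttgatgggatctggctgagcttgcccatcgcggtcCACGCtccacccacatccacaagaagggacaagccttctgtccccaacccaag
The match reads GCGTG on the opposite strand and lies 49 to 53 bases before the start. Of 32851 promoter windows of this length, 28.2% hold GCGTG on either strand and 16.6% hold ACGTG. Windows with both count under each, and 38.6% hold at least 1 of them. The glucocorticoid receptor motif TGTTCT, searched in the same way, was found in 16.1% of the windows and not in that of Gjb6. Of the 26 astrocyte genes in the promoter table, 8 have a HIF core and 5 have TGTTCT. A gene was counted if any of its windows held the motif, so these counts are not in the same unit as the shares of windows. These matches describe the letters only.

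In hypoxia replicates 1 to 4, Gjb6 stood at 102, 112, 103 and 105 CPM. In normoxia replicates 1 to 4 it stood at 90.4, 73.7, 82.3 and 87.3 CPM. Every hypoxia library lay above every normoxia library. The group means were 106 ± 4.71 and 83.4 ± 7.3 CPM (SD, n = 4 each). Gjb6 was therefore 1.27-fold higher in hypoxia (log2 0.34 ± 0.067, SE; edgeR, adjusted p = 0.0416). Without hypoxia replicate 4 the adjusted p was 0.0466, and without normoxia replicate 2 it was 0.0172. The call was lost when any other single library was left out (hypoxia replicate 1, 2 or 3, or normoxia replicate 1, 3 or 4), with adjusted p from 0.0672 to 0.133 and log2 fold changes that stayed between 0.289 and 0.385 over all 8 such fits. Over all genes tested, dropping 1 of those 6 libraries left 24 to 42 higher and 2 to 8 lower genes, from 156 and 210.

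The other connexin genes of astrocytes had negative log2 fold changes, and neither was called. Per kilobase, the normoxia level was 31.2 CPM for Gjb6, 27 for Gja1 and 7.76 for Gjb2. The length used joins the exons of all annotated transcripts, 10257 bases for Gja1 and 2674 for Gjb6. Before that division the normoxia mean was 277 CPM for Gja1 and 83.4 CPM for Gjb6. The order of these 2 genes therefore depends on the length used. Gja1, the gene for connexin 43, stood at 248, 257, 248 and 267 CPM in hypoxia and 297, 269.6, 272 and 269 CPM in normoxia. All 4 hypoxia libraries lay below all 4 normoxia libraries, by a small margin (log2 −0.12 ± 0.049, SE; edgeR, adjusted p = 0.222). Gjb2 stood at 11.8, 16.8, 9.66 and 13.7 CPM in hypoxia and 17, 14.7, 18.3 and 24.7 CPM in normoxia, and the groups overlapped (log2 −0.53 ± 0.19, SE; edgeR, adjusted p = 0.183). Within each library the ratio of Gjb6 to Gja1, which does not depend on the scaling, was 0.392 to 0.438 in hypoxia and 0.273 to 0.325 in normoxia. The ratio of Gjb6 to the general astrocyte gene Aldh1l1 was 1.43 to 1.53 and 1.08 to 1.34. Neither ratio overlapped between the groups. For Gjb6 to Gja1 this follows from the values above, as Gjb6 was higher and Gja1 lower in every hypoxia library. The ratio of Gjb6 to Gjb2 did not overlap either (6.68 to 10.6 and 3.53 to 5.33). Those of Gjb2 to Gja1 (0.0389 to 0.0655 and 0.0544 to 0.092) and Sox9 to Aldh1l1 (0.297 to 0.423 and 0.412 to 0.571) did overlap. All these ratios were picked with the values in view and have no test. Of 15 other connexin and pannexin genes, 9 were tested and 0 were called by edgeR (1 with an unadjusted p under 0.05, against 19.3% of all genes). The smallest p among them was that of the vascular connexin Gja5, with a log2 of −1.19 at mean levels of 0.451 CPM in hypoxia and 1.04 CPM in normoxia. Cldn10, a claudin, had a log2 of 0.17 (adjusted p = 0.211).

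**Figure D2:**
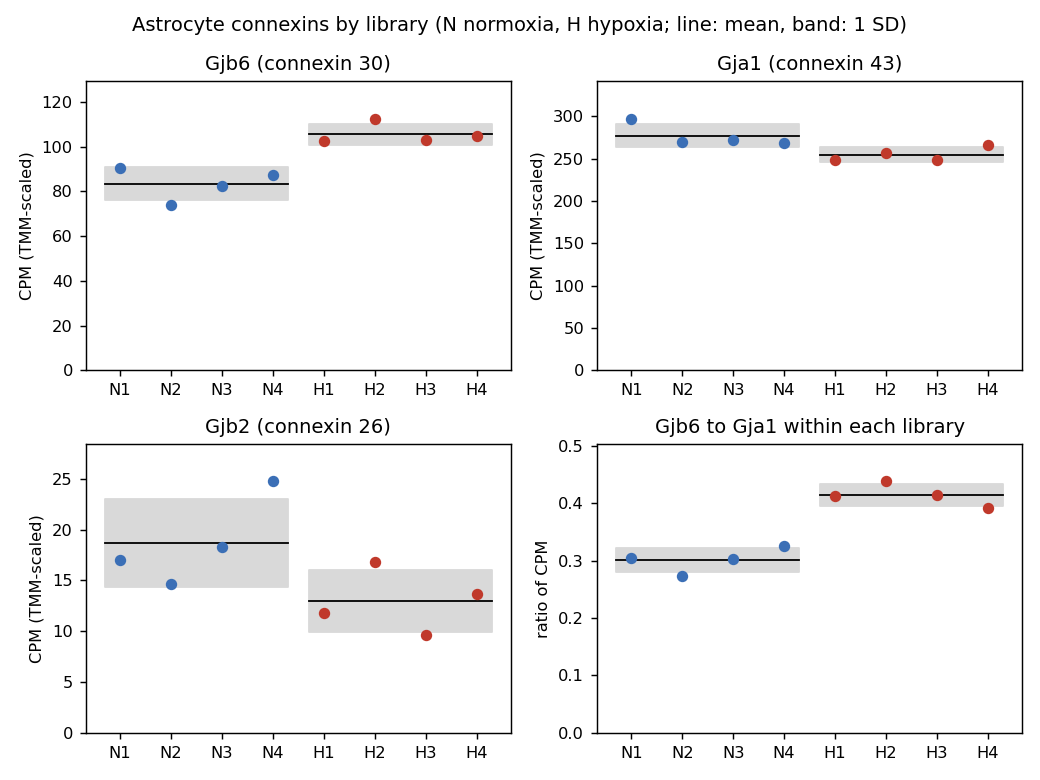
CPM of Gjb6, Gja1 and Gjb2, and the ratio of Gjb6 to Gja1, in each library (points; line, group mean; band, 1 SD; n = 4 each). Gjb6 is at 102 CPM or more in all hypoxia libraries and at 90.4 CPM or less in all normoxia libraries, while Gja1 is slightly lower in hypoxia and Gjb2 overlaps.

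Counted by overlap alone, 4 of the 33 genes (12.1%) were higher in every hypoxia library than in every normoxia library, where 5.69% of all genes tested were. These were Gjb6, Ntsr2, Slc4a4 and Aldh1l1. Gja1 alone was lower in every hypoxia library (3.03%, against 7.75% of all genes tested).

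Sox9 encodes a transcription factor of the glial lineage that mature astrocytes keep. It stood at 21.3, 22.7, 20.6 and 30.4 CPM in hypoxia and 32.5, 28, 36.8 and 35 CPM in normoxia. Hypoxia replicates 1 to 3 lay well below every normoxia library, while hypoxia replicate 4 lay above normoxia replicate 2. The means were 23.8 ± 4.48 and 33.1 ± 3.78 CPM (SD, n = 4 each), with a log2 fold change of −0.48 ± 0.13 (SE) that did not pass (edgeR, adjusted p = 0.0959). It passed without hypoxia replicate 4 (log2 −0.62, adjusted p = 0.0161), without normoxia replicate 2 (log2 −0.54, adjusted p = 0.0422) and without both (log2 −0.69, adjusted p = 0.00153). With any other single library left out the adjusted p was 0.162 to 0.264. DESeq2 called it lower on all 8 libraries (adjusted p = 0.0225).

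A further transcription factor of that family, Sox2, belongs to a list of 36 other astrocyte genes and fell. It marks neural stem cells, tanycytes and astrocytes. It stood at 34.6, 31.7, 30.7 and 39.7 CPM in hypoxia and 46.3, 47.8, 54.9 and 52.4 CPM in normoxia, with no overlap (log2 −0.56 ± 0.091, SE; edgeR, adjusted p = 0.0264). The call held without hypoxia replicate 4 (adjusted p = 0.00641) and without normoxia replicate 2 (0.0144). Dropping any of the other 6 libraries (hypoxia replicate 1, 2 or 3, normoxia replicate 1, 3 or 4) gave adjusted p from 0.0607 to 0.107. Without normoxia replicate 2 and hypoxia replicate 4 together the log2 fold change was −0.66. The other called gene of the list was Sdc4, which encodes the cell-surface proteoglycan syndecan-4, a coreceptor for growth factors. Sdc4 rose from 74.7, 69.6, 70.3 and 66.5 CPM in normoxia to 87, 91.7, 89.5 and 87.9 CPM in hypoxia (log2 0.34 ± 0.047, SE; edgeR, adjusted p = 0.0141). Its call was lost without hypoxia replicate 1, 2 or 3 and without normoxia replicate 3 or 4, with adjusted p from 0.0534 to 0.075. Both genes are also expressed by cells other than astrocytes. The remaining 34 genes of the list were not called, and the median log2 fold change of the 36 was −0.07. Without normoxia replicate 2, 4 genes of the list were called higher and 1 lower (329 and 346 over all genes, from 156 and 210), and the median was −0.01. Without that library and hypoxia replicate 4, 3 were higher and 1 lower (456 and 739 over all genes). The added calls of that fit were Mertk, a receptor for the uptake of cell debris (log2 0.51, adjusted p = 0.274 with all libraries; 0.83 and 0.0109 without the pair), and Ezr, which links membrane to actin (0.19 and 0.558; 0.37 and 0.0156). Both were highest of all libraries in normoxia replicate 2, at 45.7 and 57.2 CPM. The astrocytic potassium channel gene Kcnj10 had 0.04 and the glycolytic enzyme gene Aldoc 0.05, both with adjusted p above 0.7.

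Of the receptor genes, Ntsr2, a receptor for the peptide neurotensin, stood at 198, 211, 214 and 189 CPM in hypoxia and 183, 147, 175 and 178 CPM in normoxia. The highest normoxia library was just below the lowest hypoxia library, and the lowest value of all was that of normoxia replicate 2 (log2 0.25 ± 0.074, SE; edgeR, adjusted p = 0.11). Without normoxia replicate 2 and hypoxia replicate 4 the log2 fold change was 0.22 and the gene was called (adjusted p = 0.0292), and DESeq2 called it on all 8 libraries (adjusted p = 0.0435). Fgfr3, a fibroblast growth factor receptor, stood at 191, 191, 193 and 174 CPM in hypoxia and 179.8, 134, 155 and 159.9 CPM in normoxia, and hypoxia replicate 4 lay inside the normoxia range (log2 0.25 ± 0.083, SE; edgeR, adjusted p = 0.138). Fgfr3 overlaps a gene on the opposite strand, so its level is uncertain if the counting ignored strand. It also has an annotated pseudogene, and the treatment of multi-mapping reads is not given. The sphingosine-1-phosphate receptor gene S1pr1 and the orphan receptor gene Gpr37l1 had −0.02 and −0.03. Among 18 ligands, enzymes and other receptors of these 3 systems, 0 were called by edgeR (4 with an unadjusted p under 0.05, against 19.3% of all genes). The neurotensin gene Nts itself had the smallest p, at 0.39 ± 0.11 (adjusted p = 0.0984).

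**Figure D3:**
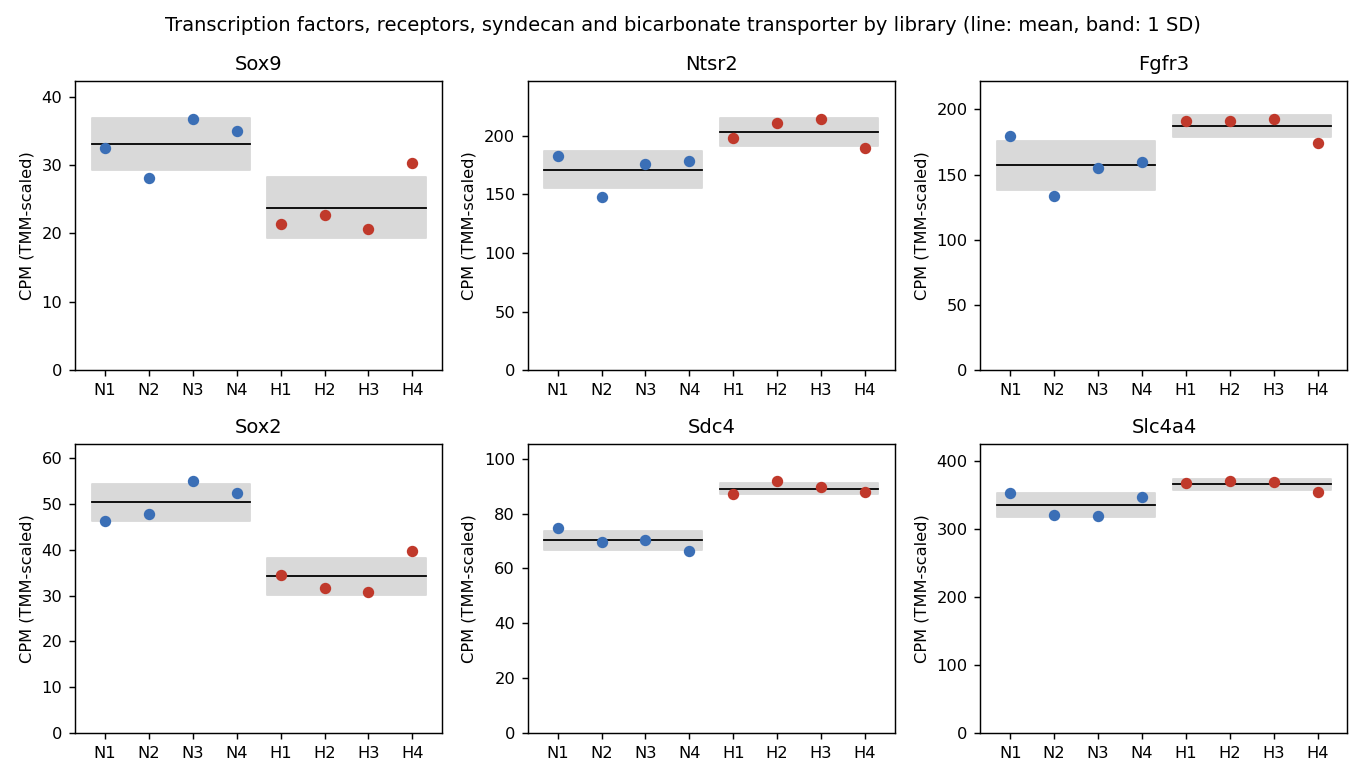
CPM in each library (points; line, group mean; band, 1 SD; n = 4 each) for Sox9, Ntsr2, Fgfr3, Sox2, Sdc4 and Slc4a4. Sox2 and Sdc4 separate the groups in opposite directions, and Sox9 does so except for hypoxia replicate 4, at 30.4 CPM, and normoxia replicate 2, at 28 CPM.

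Genes for transmitter handling gave small positive differences, none of them called. Slc1a2 and Slc1a3, the main astrocyte glutamate transporters, were at 1608 ± 82.9 and 750.3 ± 32.7 CPM in hypoxia and 1552 ± 163 and 719 ± 68.3 CPM in normoxia (SD, n = 4 each). Their log2 fold changes were 0.05 ± 0.076 and 0.06 ± 0.069 (SE). The GABA transporter gene Slc6a11 had 0.08 ± 0.065, and the neutral amino acid exchanger gene Slc7a10 0.13 ± 0.085. Without normoxia replicate 2 the log2 fold changes were 0.11 for Slc1a2, 0.12 for Slc1a3, 0.03 for Slc6a11 and 0.05 for Slc7a10, so their sizes turned on that library. Glul stood at 1514, 1606, 1533 and 1601 CPM in hypoxia and 1410.0, 1679.8, 1209 and 1269.6 CPM in normoxia. Normoxia replicate 2 was the highest of all 8 libraries and the other 3 normoxia libraries were below every hypoxia library (log2 0.17 ± 0.093, SE; edgeR, adjusted p = 0.356). Without normoxia replicate 2 the log2 fold change of Glul was 0.28 and the gene was called higher (adjusted p = 0.0229). Without any other single library the adjusted p was 0.402 or more. Slc1a2, Glul and Slc7a10 share exon bases with a gene on the opposite strand. Of 19 further genes of the glutamate, glutamine and GABA cycle, 0 were called by edgeR (5 with an unadjusted p under 0.05, against 19.3% of all genes).

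Among genes for water and ion transport, Slc4a4, the sodium bicarbonate cotransporter, stood at 368, 369.9, 369.8 and 354 CPM in hypoxia and 354, 321, 319.8 and 347 CPM in normoxia. The lowest hypoxia library and the highest normoxia library differed by less than 1 CPM (log2 0.12 ± 0.048, SE; edgeR, adjusted p = 0.199). The tweety family gene Ttyh1, which also overlaps genes on the opposite strand, had 0.06, the zinc transporter gene Slc39a12 0.05, and the sodium pump subunit gene Atp1b2 0.00. The endfoot membrane gene Mlc1 and its partner Hepacam had 0.05 ± 0.043 and 0.06 ± 0.061 (SE), and Slc14a1 −0.00 ± 0.14. Of 13 genes for the dystrophin complex and laminins that anchor channels at the endfoot, 0 were called by edgeR (2 with an unadjusted p under 0.05, against 19.3% of all genes), with the dystrophin gene Dmd at −0.16 (adjusted p = 0.0981). Dmd was called lower without normoxia replicate 2 and hypoxia replicate 4 together (log2 −0.20, adjusted p = 0.0278). Of 8 sodium pump genes 0 were called (0 with an unadjusted p under 0.05), and Fxyd6 had the smallest p (log2 0.18).

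The water channel gene Aqp4 varied more between libraries than between groups, and so did Gfap and the calcium-binding protein gene S100b. Aqp4 stood at 161, 217, 167 and 163 CPM in hypoxia and 263, 179, 184 and 173 CPM in normoxia (log2 −0.18 ± 0.15, SE; edgeR, adjusted p = 0.554). Gfap stood at 223, 327, 209 and 213 CPM in hypoxia and 306, 225, 355 and 230.2 CPM in normoxia (log2 −0.20 ± 0.18; adjusted p = 0.588). For all 3 genes normoxia replicate 1 and hypoxia replicate 2 were high within their groups. S100b stood at 121, 149, 118 and 118 CPM in hypoxia and 165, 106, 145 and 129 CPM in normoxia (log2 −0.10 ± 0.13; adjusted p = 0.71). The sum of 12 oligodendrocyte genes, from the myelin-forming glia of fibre tracts, was 7321, 10738, 7518 and 7626 CPM in hypoxia and 12456, 7061, 9207 and 7902 CPM in normoxia, and normoxia replicates 1 and 3 and hypoxia replicate 2 were its 3 highest libraries. The same 3 libraries were the highest in Gfap. S100b is also expressed by oligodendrocytes. The part of white matter content in these 3 values was not tested. Aldh1l1 and Acsbg1, a fatty acid activating enzyme gene, were much steadier, at 71.7, 73.6, 68.2 and 71.7 CPM and 189.8, 202, 192 and 194 CPM in hypoxia. In normoxia Aldh1l1 was at 67.4, 68, 64.4 and 66.9 CPM and Acsbg1 at 199.9, 199, 186 and 186 CPM. Aldh1l1 did not overlap between the groups (log2 0.10 ± 0.043; adjusted p = 0.253) and it shares exon bases with a gene on the opposite strand.

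**Figure D4:**
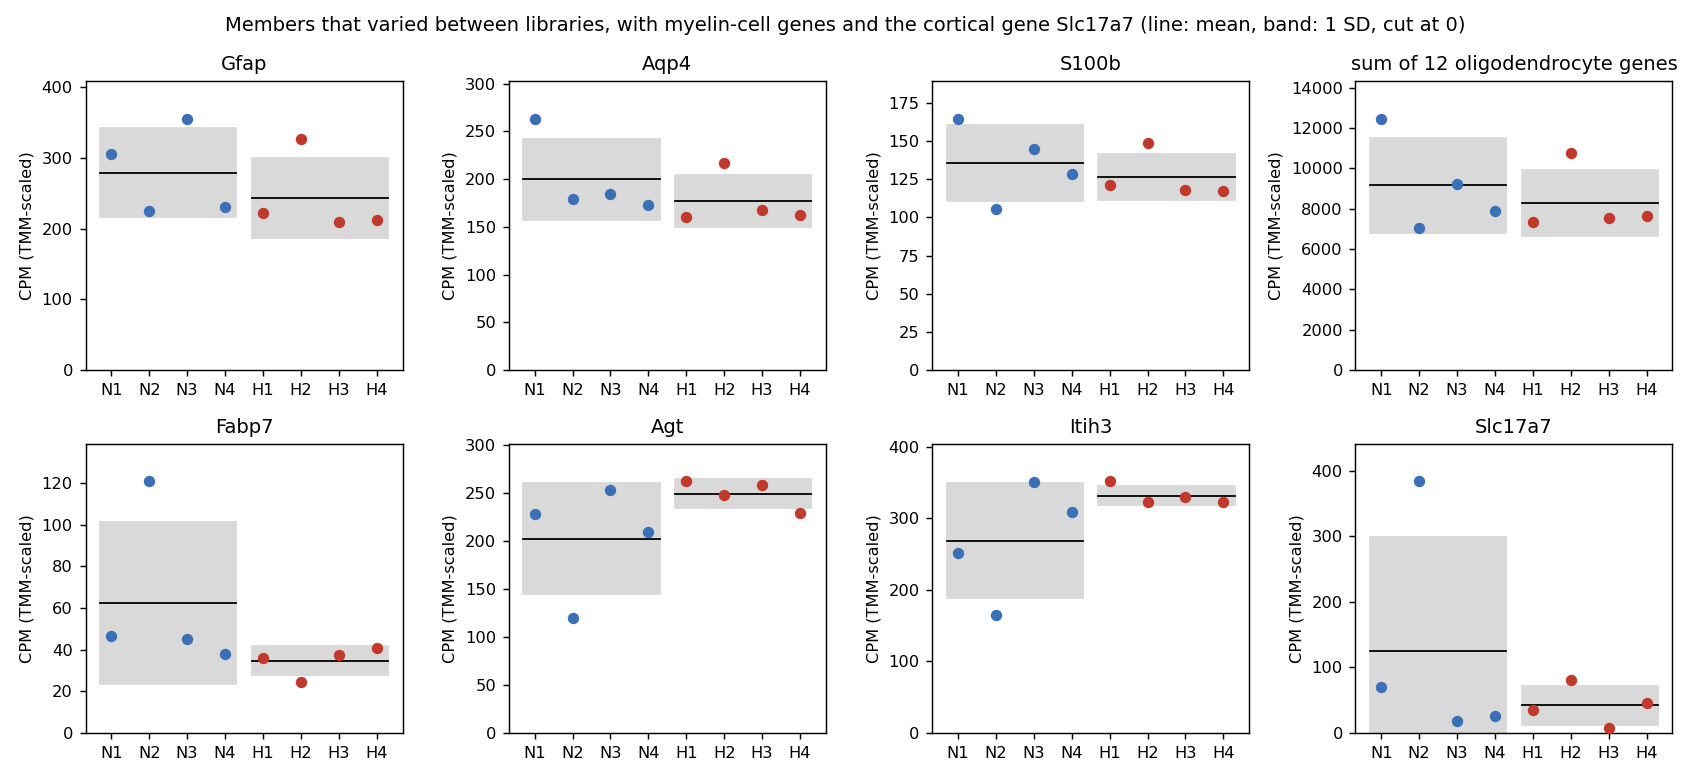
CPM in each library (points; line, group mean; band, 1 SD cut at 0; n = 4 each). Upper row, Gfap, Aqp4, S100b and the sum of 12 oligodendrocyte genes, with N1 and H2 high in all 4 panels; lower row, Fabp7, Agt, Itih3 and Slc17a7, with N2 apart from the rest.

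A different pattern set normoxia replicate 2 apart. Fabp7, a brain fatty acid binding protein gene of radial glia and immature astrocytes, stood at 46.4, 121, 45 and 38.1 CPM in normoxia and 36.1, 24.7, 37.4 and 40.9 CPM in hypoxia. Its log2 fold change of −0.85 ± 0.35 (SE; edgeR, adjusted p = 0.231) was −0.30 without normoxia replicate 2. Agt, which encodes the angiotensin precursor and is known as an astrocyte gene of the diencephalon and brainstem more than of the cortex, stood at 228, 119.9, 253 and 209 CPM in normoxia and 262, 248, 259 and 229 CPM in hypoxia. Itih3, a hyaluronan-binding inhibitor gene, stood at 251, 164, 350.0 and 309 CPM in normoxia and 351, 322, 329 and 323 CPM in hypoxia. Both were lowest in normoxia replicate 2. Their log2 fold changes of 0.30 ± 0.19 and 0.30 ± 0.19 (SE; adjusted p = 0.417 and 0.412) were 0.12 and 0.13 without that library. For 16 of the 33 genes the lowest library of all was normoxia replicate 2, and for 6 it was the highest. Beside the Slc17a7 value above, the forebrain regulator gene Lhx2 was at 22.9 CPM there against 7.9 to 9.31 CPM elsewhere, and the astrocyte gene Mfge8, known to be richer in the telencephalon, at 133 CPM against 86.9 to 111 CPM. The part of regional content in these differences was not tested.

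**Figure D5:**
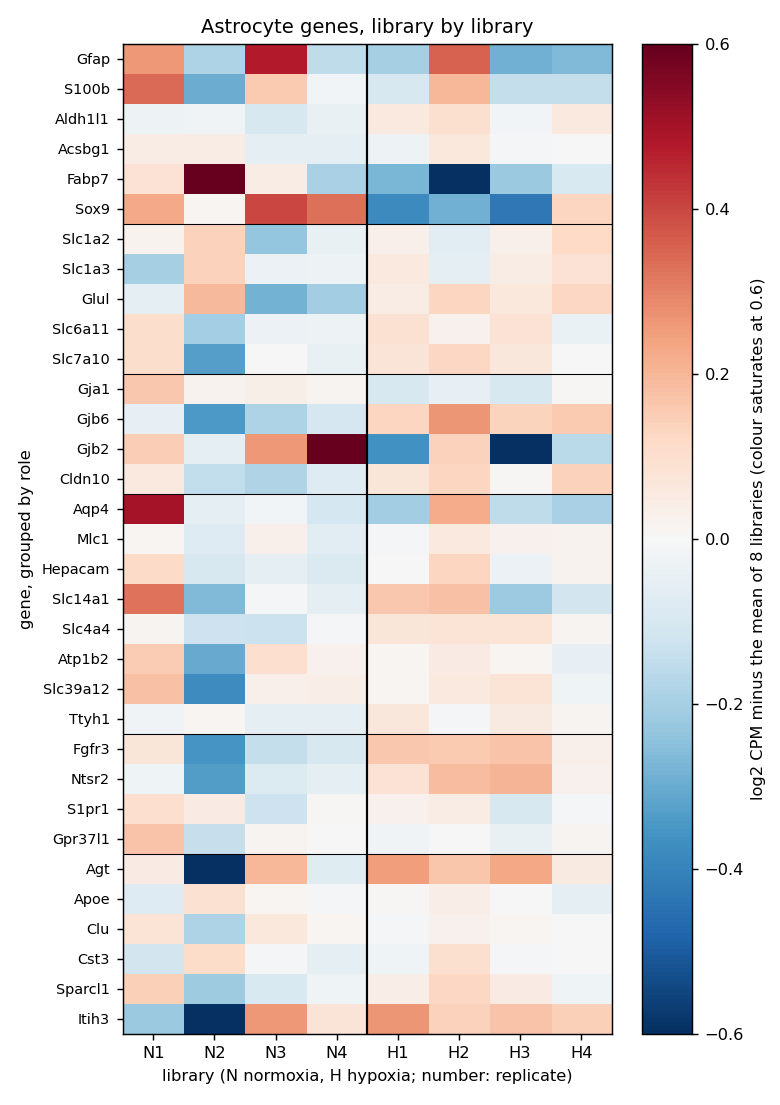
Log2 CPM of each of the 33 genes (rows, grouped by role) in each library (columns; N normoxia, H hypoxia), as the difference from the mean of the 8 libraries, with red high and blue low and the colour saturating at 0.6. N2 is blue in 16 rows as the lowest library, and the hypoxia columns differ less among themselves than the normoxia columns do.

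The remaining genes for secreted products showed small differences, none of them called. Apoe averaged 1337 ± 37.8 CPM under hypoxia and 1347 ± 65.8 CPM under normoxia, the chaperone gene Clu 734 ± 7.01 and 727 ± 59.1, and Cst3 742 ± 29.6 and 727 ± 47.8 (SD, n = 4 each). Their log2 fold changes were −0.01, 0.01 and 0.03, with SE of 0.047, 0.059 and 0.056, and that of Sparcl1 was 0.09 ± 0.073. Of 13 genes of lipid carriage 0 were called by edgeR (1 with an unadjusted p under 0.05, against 19.3% of all genes), with the lipoprotein receptor gene Lrp1 at 0.15 (adjusted p = 0.157). The cholesterol exporter gene Abca1, named after its values were seen, had 0.19 (adjusted p = 0.34), and 0.33 without normoxia replicate 2 and hypoxia replicate 4, where it was called (adjusted p = 0.024). Of 10 genes of the angiotensin pathway 8 were tested and 0 were called (1 with an unadjusted p under 0.05, against 19.3% of all genes), with the receptor gene Agtr1a at 0.55 ± 0.22 and 1.22 to 3.05 CPM.

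The 33 genes varied less among the hypoxia libraries than among the normoxia libraries. In 29 of the 33 genes the SD of log2 CPM was smaller in hypoxia than in normoxia, and in 26 when normoxia replicate 2 was left out. Over all genes tested, 66.9% had the smaller SD in hypoxia, and 49.6% without that library. The median SD of the 33 genes was 0.0607 in hypoxia and 0.141 in normoxia, against 0.0708 and 0.107 for the 9380 genes counted at least as highly as the lowest of them. Clu was the steadiest gene in hypoxia and Ttyh1 in normoxia, and Gjb2 and Fabp7 were the least steady. This difference in spread was not tested.

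Of 25 genes that astrocytes switch on when they become reactive, 20 were tested and 0 were called by edgeR (4 with an unadjusted p under 0.05, 1 higher and 3 lower, against 19.3% of all genes), with a median log2 fold change of −0.03. The median was −0.08 without normoxia replicate 2. Without that library and hypoxia replicate 4, 1 gene was called higher, the signalling gene Stat3 (log2 0.16, adjusted p = 0.0485; 0.14 and 0.156 with all libraries). Vim, an intermediate filament gene, had −0.25 ± 0.18 (SE; edgeR, adjusted p = 0.498). Sphk1, the sphingosine kinase gene, had the smallest p (log2 −0.88, adjusted p = 0.136) at 2.89 ± 0.99 CPM in hypoxia and 5.29 ± 1.58 CPM in normoxia (SD, n = 4 each). The secreted protein gene Lcn2 and the chemokine gene Cxcl10, strong markers of that state, were under 0.7 CPM in every library and were not tested.

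Markers of other cell types were examined for the same libraries. Neuron genes (12, summed level 6785 to 6880.3 CPM in hypoxia and 6033 to 7436 CPM in normoxia) had 0 called, as had the 12 oligodendrocyte genes and 10 microglia genes (345 to 389 CPM and 328 to 400.1 CPM). Their smallest p values were those of Gad2 (log2 0.22), Aspa (−0.31) and Cx3cr1 (−0.15). The oligodendrocyte precursor gene Pdgfra rose (log2 0.26, edgeR adjusted p = 0.0462), as did the glucose transporter gene Slc2a1 of endothelial cells and astrocytes (0.70), the mural potassium channel gene Kcnj8 (0.98) and the adrenomedullin gene Adm (2.80). The endothelial transporter gene Slco1a4 fell (−0.48). All 5 were called without hypoxia replicate 4 and without normoxia replicate 2. Without any other single library none was called, except Adm without normoxia replicate 1. Pdgfra and Slc2a1 share exon bases with genes on the opposite strand. Those 5 were 1 or 2 of the 9 to 11 markers of their lists, whose other markers were not called. The neuron gene Rbfox3 was called higher without normoxia replicate 2 and hypoxia replicate 4 (log2 0.24, adjusted p = 0.0274; 0.07 with all libraries), and the endothelial receptor gene Tek lower (−0.36 and 0.0338; −0.29).

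Several lists of regional and other cell markers had nearly all their genes on 1 side, with none called. All 9 striatum genes had a positive log2 fold change (median 0.42), all 9 thalamus genes (−0.38) and all 9 meningeal fibroblast genes (−0.29) a negative one, and so had 11 of the 12 oligodendrocyte genes (−0.13). The summed striatum level was 859, 925, 1292 and 1367 CPM in hypoxia and 503, 1249.8, 551 and 1053 CPM in normoxia, lowest in normoxia replicates 1 and 3. The summed meningeal level was 123, 184, 107 and 143 CPM in hypoxia and 160.0, 146, 162 and 223 CPM in normoxia, and the groups overlapped in both sums. Without normoxia replicate 2 the medians were 0.61 for striatum, −0.56 for thalamus, −0.38 for meningeal fibroblasts and −0.24 for oligodendrocytes. None was called among the markers of meningeal fibroblasts (Igfbp2 −0.54), choroid plexus (Clic6 0.45), cortex and hippocampus (Slc17a7 −1.56, and 0.10 without normoxia replicate 2 and hypoxia replicate 4), pituitary (Pomc 0.43), thalamus (Zic1 −0.27) or striatum (Tac1 0.43). The part of these cell types in the differences of the astrocyte genes was not tested.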

How the data were processed

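Hypothalamic RNA was made into 8 TruSeq Stranded mRNA libraries, per the labels' protocols. The authors deposited raw read counts per Ensembl gene. Tools listed in the submitters' processing notes are featureCounts, HISAT2 2.0.4 and HISAT, with Trimmomatic, SAMtools and DESeq2, and the build is mm10. Not given in the sources used here: the annotation release, the strand setting and the treatment of multi-mapping reads. Of the 33 genes, 6 share exon bases with a gene on the opposite strand.

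Counts were tested with edgeR 4.0.16 (R 4.3.3): filterByExpr (minimum count 10, minimum total 15; 17047 of 55487 genes kept), TMM scaling, quasi-likelihood F test with group as the only term, and Benjamini-Hochberg adjustment over all genes at 0.05. The SE is the log2 fold change divided by the square root of F. Library totals (16994473 to 21694383) set the counting precision. Library pairs within a group gave 4.62 to 37.3 chi-square per gene, more than repeats of 1 library would give. Per the design text the libraries are biological replicates, and p-values measure the spread between them. Exon lengths (joined over all transcripts of a gene), positions and overlaps come from GENCODE M21 (GRCm38), and promoter windows from RefSeq (GRCm38.p6).

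The members, lists and tests were chosen with earlier results of these data known. All 33 members are named. Those called, and the 5 with the next smallest p, have values per library, as have others chosen after their values were seen. Each other list names up to 3 called genes or the gene with the smallest p, and Kcnj10, Aldoc, Vim and Slc17a7 are always named. Some genes that this rule picks are not reported here. Alternatives were DESeq2 1.42.0, limma-voom (limma 3.58.1), other scalings, filters and thresholds, robust and newer quasi-likelihood forms, a replicate block, and libraries left out. The gene test was tried on simulated counts with known changes.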

Additional observations from a re-analysis of the deposited data

Results flagged for a closer look

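In 8 of the 66 groups of 4 libraries formed by the 33 genes in hypoxia and in normoxia, 1 library lay far from the other 3 by Dixon's ratio of its gap to the group's range, where chance flags about 1 group in 20. Hypoxia replicate 2 was the high library in Gfap (327 CPM, next 223), S100b (149, next 121) and Aqp4 (217, next 167). Normoxia replicate 1 was the high library in Aqp4 (263 CPM, next 184) and Gja1 (297, next 272). Normoxia replicate 2 was the high library in Fabp7 (121 CPM, next 46.4). Hypoxia replicate 4 was the low library in Slc4a4 (354 CPM, next 368) and Fgfr3 (174, next 191).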

How the results depend on the processing

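The count of astrocyte genes called was 1 higher and 0 lower, and 7 alternatives (limma-voom, the newer and the robust forms of the test, other scalings and other filters) gave the same counts. DESeq2 gave 2 higher and 1 lower, adjusted p under 0.1 gave 1 lower, and leaving out normoxia replicate 2 and hypoxia replicate 4 together gave 3 higher and 1 lower, since Glul and Ntsr2 joined Gjb6. Calls rose over all genes too, from 156 higher and 210 lower to 386 and 616 with DESeq2 and 456 and 739 without both libraries. With 1 library left out, 0 to 2 of the 33 were called higher and 0 to 1 lower. Replicate numbers did not pair the libraries (correlations of deviations from −0.105 to 0.043), and the fit with the number as a replicate block called 0 higher and 0 lower, with 20 higher and 1 lower over all genes. The median log2 fold change of the 33 stayed between 0.03 and 0.07. The genes that changed sign under an alternative were called under none of them. By library size alone, Acsbg1 was −0.0148, Atp1b2 −0.0247 and Clu −0.014. Slc14a1 was 0.0053 with DESeq2, 0.0052 with RLE size factors and 0.0045 with the replicate block. Without both libraries, Atp1b2 was −0.0695, Slc39a12 −0.0321, Apoe 0.0386, Clu −0.0407, Aldoc −0.0107 and Slc17a7 0.096. With 1 library or those 2 left out, log2 fold changes ran from −0.202 to 0.0069 (S100b), −0.0062 to 0.0324 (Acsbg1), −0.0062 to 0.114 (Slc1a2), −0.0789 to 0.127 (Slc14a1), −0.0823 to 0.0597 (Atp1b2), −0.0462 to 0.127 (Slc39a12), −0.0534 to 0.0188 (S1pr1), −0.0866 to 0.0309 (Gpr37l1), −0.0318 to 0.0386 (Apoe), −0.0407 to 0.0459 (Clu), −2.071 to 0.148 (Slc17a7), −0.0179 to 0.142 (Kcnj10) and −0.0107 to 0.0921 (Aldoc). The cause of these changes was not tested. With 4 libraries a group, the SE of the 33 log2 fold changes ran from 0.039 (Ttyh1) to 0.35 (Fabp7), which limits what could be called.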
